A study of Arabidopsis thaliana with 6 samples.

Results

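Seed oil mobilisation and the glyoxylate cycle were followed here through 10 genes chosen by locus, which are 10 of the 33602 genes in the count files. They were named by locus for their known functions, and 9 of them, all abundant enough to test, are reported: SDP1, LACS6, LACS7, ACX2, KAT2, CSY2, ICL, MLS and PCK1. The study sequenced RNA of entire Arabidopsis thaliana seedlings, with roots, hypocotyls and cotyledons together, and set ecotype Columbia against athb1-1, a mutant of the homeodomain-leucine zipper transcription factor gene ATHB1. The wild-type group (WT) and the athb1-1 group each held 3 libraries, which the series calls biological triplicates. The labels give all seedlings of both genotypes as 4 days old, while their treatment note gives a shorter time since stratification, and the files do not settle which holds. All had been stratified for 3 days and grew with 8 h of light and 16 h of darkness. All were harvested 1 h before the night ended. The sources used here give neither the nature of the athb1-1 allele nor the number of seedlings pooled per library. No source says more of how the triplicates were separated, so p-values rest on the spread between these samples, pooled in part over genes.

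Arabidopsis seeds store carbon mainly as triacylglycerol in oil bodies. After germination lipases release fatty acids, which are carried into the peroxisome, activated to acyl-CoA and cut to acetyl-CoA by beta-oxidation. The glyoxylate cycle then joins acetyl-CoA units into organic acids, and gluconeogenesis turns these into sugar that feeds the seedling until its cotyledons photosynthesise. As this happens, the peroxisomes take on the enzymes of photorespiration.

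Windows of 300 bases upstream of the annotated transcript starts are shown for ICL and MLS, the enzymes specific to the glyoxylate cycle, and for PCK1, which leads into gluconeogenesis. They were read from RefSeq's TAIR10.1 genome, at chr3:7656054-7656353 for ICL, chr5:1034974-1035273 for MLS and chr4:17806706-17807005 for PCK1, all on the minus strand. Each is written 5′ to 3′ towards the gene, and capitals mark ACGTG or, where the match lies on the other strand, CACGT.
ICL: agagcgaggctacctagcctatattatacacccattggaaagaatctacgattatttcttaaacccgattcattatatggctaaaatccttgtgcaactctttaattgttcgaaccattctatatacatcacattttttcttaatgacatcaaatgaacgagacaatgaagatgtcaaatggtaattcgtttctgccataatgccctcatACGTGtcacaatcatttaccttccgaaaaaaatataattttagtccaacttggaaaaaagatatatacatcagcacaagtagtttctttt
MLS: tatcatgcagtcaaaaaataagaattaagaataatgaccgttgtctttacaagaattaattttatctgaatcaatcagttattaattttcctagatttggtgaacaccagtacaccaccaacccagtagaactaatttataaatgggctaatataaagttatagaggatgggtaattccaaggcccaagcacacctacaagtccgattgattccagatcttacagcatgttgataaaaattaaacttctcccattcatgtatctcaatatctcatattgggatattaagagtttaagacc
PCK1: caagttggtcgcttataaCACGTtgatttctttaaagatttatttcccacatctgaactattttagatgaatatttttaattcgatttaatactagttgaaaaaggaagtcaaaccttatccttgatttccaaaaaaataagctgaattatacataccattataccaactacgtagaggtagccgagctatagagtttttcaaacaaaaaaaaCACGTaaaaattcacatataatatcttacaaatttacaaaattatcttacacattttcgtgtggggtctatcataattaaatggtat
ACGTG, the core of many plant G-box-like elements, stood 90 bases before the ICL start and 282 and 87 bases before the PCK1 start. It was in the windows of 2 of the 9 genes and, on either strand, in 25.6% of the same windows of 27443 protein-coding genes. CACGTG, the full palindromic G-box and thus a longer form of the same letters, was in 0 of the 9 windows and in 7.09% of all windows. CAATNATTG, a 9-base pattern searched with any middle base, covers sites that HD-Zip factors are known to bind in vitro. It was in 0 of the 9 and in 1.14% of all windows. Because any middle base counted, the 1.14% is not limited to sites of class I factors such as ATHB1. The windows of ACX2, CSY2 and LACS6 overlap an annotated neighbouring gene, and the windows of all genes were not screened for such overlaps. These counts describe letters in 1 window per gene, not binding.

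The gene files held 11036314 to 13153615 counts per library. The deposited gene counts list the ATHB1 locus at 0 in all 6 libraries, so the mutated gene was read from the exon bins of its locus, which the files merge with an overlapping one. Those bins held 4744, 5823 and 5490 counts in WT and 141, 120 and 136 in athb1-1. The groups were far apart (log2 fold change −5.56, SE 0.12, edgeR quasi-likelihood test with Benjamini-Hochberg adjusted p = 7.36e-11). Markers of root (CASP1, 50.1 to 68.7 CPM, counts scaled to equal library totals) and of green cotyledon (RBCS1A, 16211 to 22951 CPM) were present in every library. Among 14 seed storage and oil body genes, which are made in the embryo, the summed level was 8.83, 54.8 and 2.70 CPM in WT and 6.68, 1.56 and 2.24 CPM in athb1-1. WT replicate 2 stood apart from the other 5 libraries in that sum.

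No gene of oil mobilisation passed the test for a difference between the genotypes. By edgeR's test 0 of the 9 passed an adjusted p under 0.05, against 0.0537% of the 18626 genes tested. By unadjusted p under 0.05 the count was also 0, against 5.24% of all genes, and by DESeq2 it was 0, against 0.123%. The WT and athb1-1 values overlapped for all 9. Over all genes tested they did not overlap for 11.3%, a share from which 9 genes cannot be set apart. The median log2 fold change (athb1-1 over WT) of the 9 was −0.04, with 8 values below 0 and 1 above. Among the 8, CSY2 was level, at −1.25e-05. Over all genes tested the median was 0.01 and 48.3% of values lay below 0. The 95% intervals of all 9 held 0, and those of 5 lay within 1.2-fold in either direction. The lowest bound, 0.586-fold, was that of ICL and the highest, 1.17-fold, that of ACX2. With 3 libraries a genotype, changes within a gene's own interval were not excluded. The intervals are not adjusted for the number of genes tested, and they rest on spreads pooled in part over genes, not on each gene's own alone. In bulk seedlings, fewer cells of a type and less RNA per cell cannot be told apart.

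**Figure D1:**
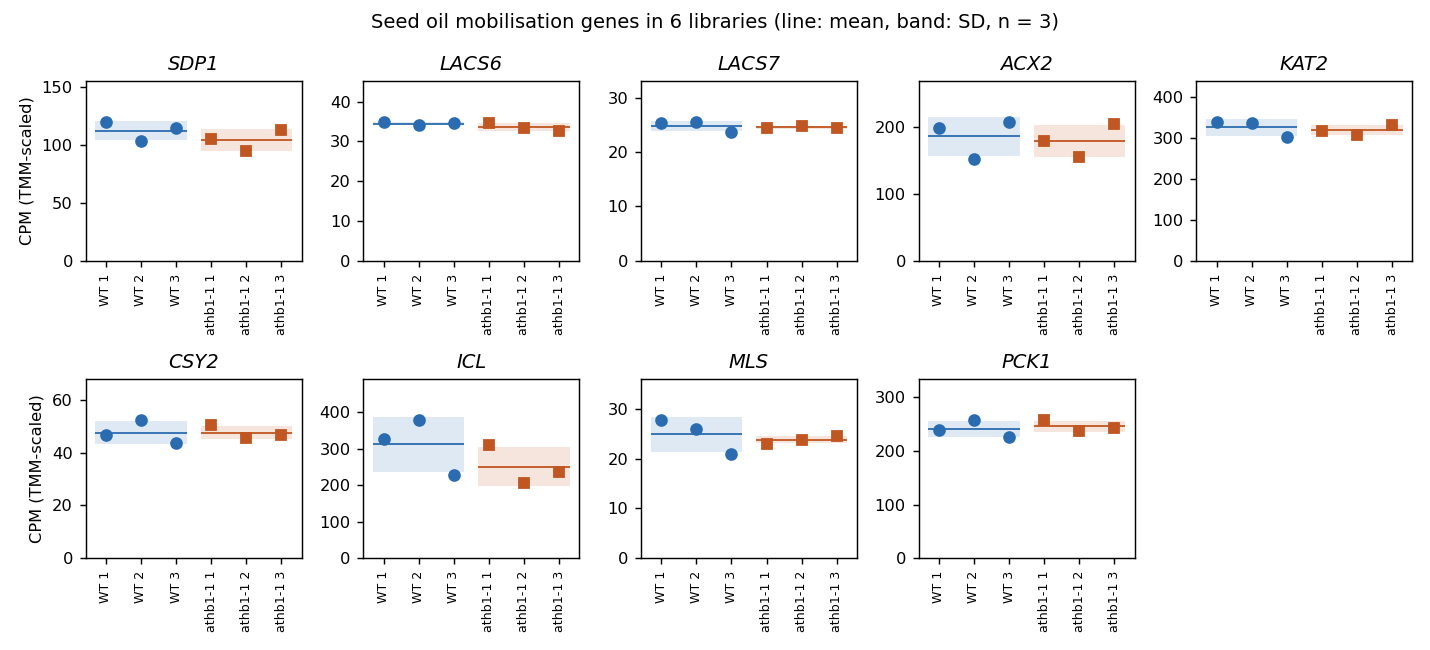
Level of each of the 9 genes in every library, in CPM scaled with TMM factors on axes that start at 0. Circles are WT, squares are athb1-1, lines are means and bands are SD over 3 libraries. The genotypes overlap in every panel, and ICL has the widest spread, from 206 to 379 CPM.

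The first step is oil breakdown. SDP1 (AT5G04040, chromosome 5, 1089342 to 1093204, plus strand), the main triacylglycerol lipase of germinating seeds, was at 119, 103 and 114 CPM in WT and 105, 94.2 and 113 CPM in athb1-1. Only athb1-1 replicate 2 fell below every WT library, and the other mutant values lay inside the WT range. The log2 fold change was −0.11 (SE 0.10, edgeR with Benjamini-Hochberg adjusted p = 0.971), with a fold interval of 0.798 to 1.08. It was −0.06 without WT replicate 1, −0.05 without athb1-1 replicate 2 and −0.17 without either WT replicate 2 or athb1-1 replicate 3.

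Fatty acids are then activated in the peroxisome. LACS6 (AT3G05970, chromosome 3, 1786279 to 1791887, minus strand) and LACS7 (AT5G27600, chromosome 5, 9742492 to 9747024, plus strand) are the peroxisomal long-chain acyl-CoA synthetases that do this. LACS6 was at 34.8, 34.0 and 34.6 CPM in WT and 34.5, 33.5 and 32.6 CPM in athb1-1. LACS7 was at 25.4, 25.5 and 23.7 CPM in WT and 24.5, 24.8 and 24.4 CPM in athb1-1. Both were nearly level across the 6 libraries, with overlapping genotypes. The within-genotype SD of LACS6, 0.03 on the log2 scale, was larger than that of only 0.899% of the 5561 tested genes within 2-fold of its level, and that of LACS7, 0.04, larger than 1.85% of 6151. Removing each library's trend with transcript length gave 0.05 for LACS6 and 0.08 for LACS7. With 374 to 476 counts of LACS6 and 273 to 337 of LACS7 per library, counting noise was not separated from these spreads. Their fold intervals were 0.850 to 1.11 for LACS6 and 0.857 to 1.14 for LACS7.

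ACX2 (AT5G65110, chromosome 5, 26009521 to 26012684, minus strand) is an acyl-CoA oxidase that prefers long chains, and such oxidases open the turns of beta-oxidation. ACX2 was at 198, 153 and 207 CPM in WT and 179, 154 and 204 CPM in athb1-1. Replicate 2 was the lowest library of each genotype, and the groups overlapped. Its log2 fold change was −0.06 (SE 0.13), with a fold interval of 0.789 to 1.17. KAT2 (AT2G33150, chromosome 2, 14047478 to 14051400, minus strand, named PKT3 in TAIR10.1), the thiolase that ends each turn, was at 339, 338 and 303 CPM in WT and 317, 309 and 332 CPM in athb1-1. All 3 mutant values lay between the WT extremes. The fold interval of KAT2 was 0.853 to 1.12.

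Acetyl-CoA next meets the glyoxylate cycle. CSY2 (AT3G58750, chromosome 3, 21724306 to 21728137, minus strand), a peroxisomal citrate synthase, was at 46.6, 52.2 and 43.7 CPM in WT and 50.3, 45.6 and 46.6 CPM in athb1-1. All mutant values lay inside the WT range. The group means were 47.5 ± 4.32 and 47.5 ± 2.46 CPM (SD, n = 3 each), and the fold interval was 0.860 to 1.16.

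ICL (AT3G21720, chromosome 3, 7652487 to 7656053, minus strand), the isocitrate lyase that splits isocitrate into succinate and glyoxylate, was at 328, 379 and 230 CPM in WT and 311, 206 and 237 CPM in athb1-1. WT replicates 1 and 2 and athb1-1 replicate 1 were high, and WT replicate 3 and athb1-1 replicates 2 and 3 were low, so the genotypes overlapped. The means were 312 ± 75.8 CPM in WT and 251 ± 53.8 CPM in athb1-1 (SD, n = 3 each). Its log2 fold change of −0.31 (SE 0.20) was the farthest from 0 of the 9, with a fold interval of 0.586 to 1.11. It did not pass the test, with an unadjusted p of 0.155 and an adjusted p of 0.951 (edgeR, Benjamini-Hochberg). The value rested partly on single libraries. It was −0.16 without WT replicate 2, −0.19 without athb1-1 replicate 2, −0.49 without WT replicate 3 and −0.50 without athb1-1 replicate 1, and none of these passed. The authors' deposited table gives −0.31 for ICL, with its sign turned to athb1-1 over WT, and an adjusted p of 1.

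MLS (AT5G03860, chromosome 5, 1032099 to 1034973, minus strand), the malate synthase that joins the glyoxylate made by ICL to acetyl-CoA, was at 27.7, 25.9 and 21.0 CPM in WT and 23.0, 23.8 and 24.4 CPM in athb1-1. The mutant values lay close together inside the wider WT range. Its log2 fold change was −0.06 (SE 0.12), with a fold interval of 0.803 to 1.14. PCK1 (AT4G37870, chromosome 4, 17802690 to 17806705, minus strand), the phosphoenolpyruvate carboxykinase of gluconeogenesis, was at 240, 257 and 227 CPM in WT and 257, 237 and 243 CPM in athb1-1. The highest libraries of the genotypes were level, and the groups overlapped. It was the 1 gene of the 9 with a log2 fold change above 0 (0.03, SE 0.09), and its fold interval was 0.889 to 1.17.

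**Figure D2:**
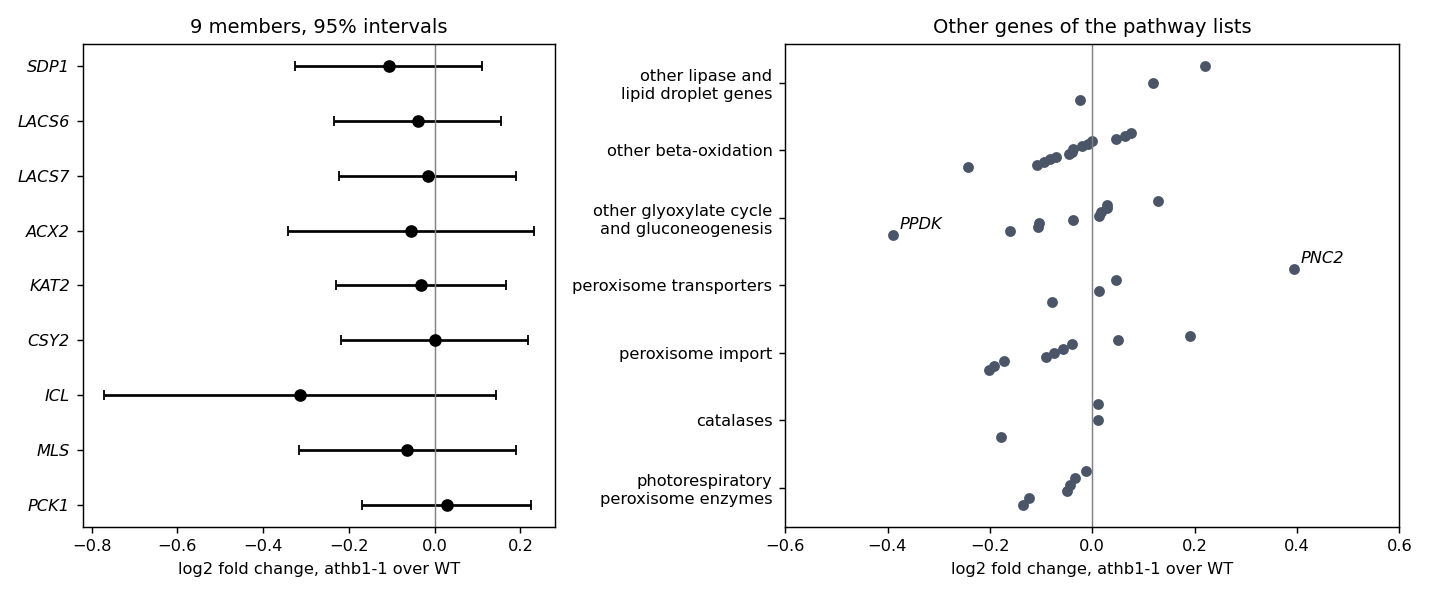
Left, log2 fold change (athb1-1 over WT) of the 9 genes with 95% intervals from edgeR's fit over all genes; every interval holds 0. Right, log2 fold change of the 49 tested genes of 7 related lists, 1 point per gene; PPDK (−0.39) and PNC2 (0.39) lie farthest from 0 and neither passed the test.

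Levels were compared between genes per kilobase (kb) of the longest annotated transcript. In CPM per kb, averaged over the 6 libraries, KAT2 was highest at 151, followed by ICL at 127, PCK1 at 94.2 and ACX2 at 70.7. SDP1 was at 32.7, CSY2 at 19.1, LACS6 at 13.7, MLS at 10.4 to 13.7 over the libraries and LACS7 at 10.1. Among neighbours in this order, the library ranges overlapped for KAT2 and ICL, ICL and PCK1, LACS6 and MLS, and MLS and LACS7. The other 4 neighbouring pairs did not overlap. These levels depend on the annotated lengths, as for CSY2, whose first exon took 925 of 2482 bases and held few counts.

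The glyoxylate cycle enzymes stood at unequal levels. ICL was 7.92 to 13.4 times MLS per kb over the 6 libraries, with a mean ratio of 11.4 ± 1.74 in WT and 9.72 ± 2.34 in athb1-1 (SD, n = 3 each). The ranges of this ratio overlapped between the genotypes.

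Within enzyme families, the gene known from oil mobilisation was not always the most abundant. KAT2 was 28.4 to 36.3 times its paralogue KAT1 and 255 to 508 times KAT5, per kb. PCK1 was 30.4 to 41.7 times PCK2, and SDP1 was 11.7 to 17.2 times SDP1L, its lipase relative. Among acyl-CoA oxidases, ACX4, which acts on short chains, was 2.87 to 4.21 times ACX2, and ACX1 was 1.43 to 2.05 times ACX2. CSY3, the other peroxisomal citrate synthase of seedlings, was 1.70 to 1.93 times CSY2 per kb in every library. That ratio rests on the annotated length of CSY2, whose first exon of 925 bases held few counts. This exon had 0.469 counts per base over the 6 libraries, and the other exons of CSY2 had 1.65 to 4.98. In CPM without a length scale the means were 66.1 for CSY3 and 47.5 for CSY2. CSY1 had 1 count in WT replicate 2 and 0 in the other libraries. LACS6 was 1.32 to 1.45 times LACS7. The sources used here do not say how reads that match several paralogues were counted.

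Of the 6 photorespiratory enzymes of leaf peroxisomes, 5 were above ICL per kb, and GGT2, at 10.7 CPM per kb, was below it. GGT1, a glutamate-glyoxylate aminotransferase, was 9.75 to 16.6 times ICL per kb, and GOX1, a glycolate oxidase, was 7.68 to 13.4 times ICL. HPR1, the hydroxypyruvate reductase, was 3.74 to 6.13 times ICL, and the catalase CAT2 was 6.70 to 10.7 times ICL. In each of these 4 ratios the genotype ranges overlapped.

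**Figure D3:**
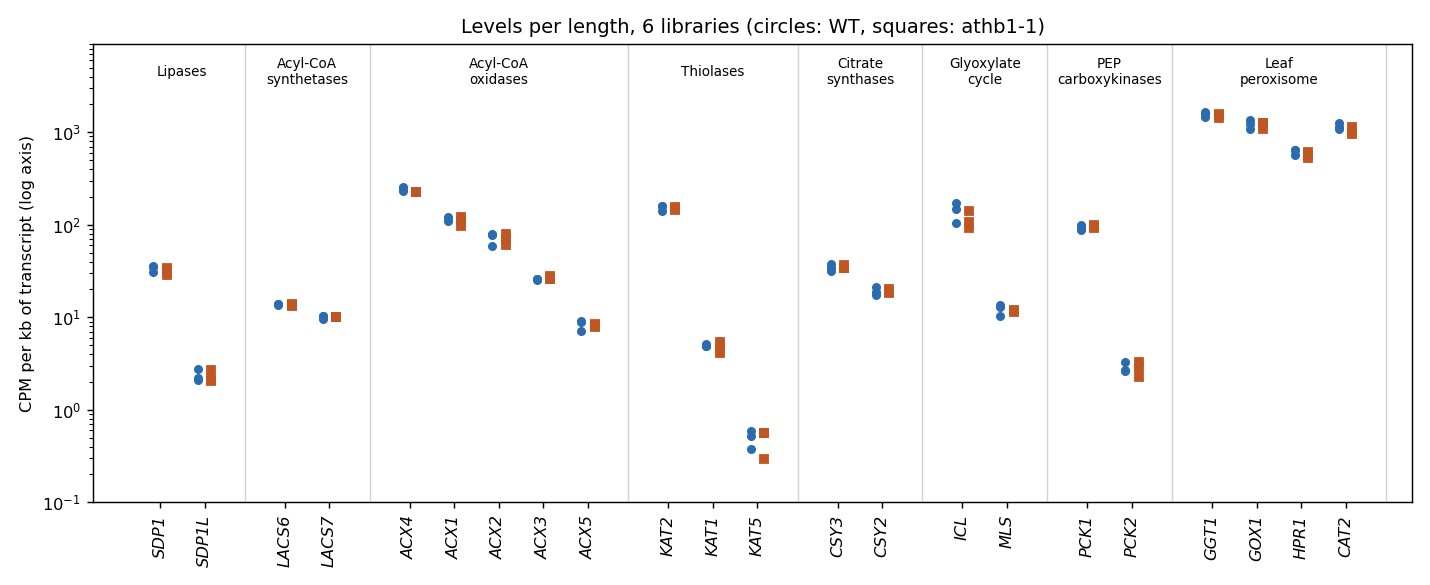
Level per length (CPM per kb of transcript, log axis) in 3 WT libraries (circles) and 3 athb1-1 libraries (squares), grouped by enzyme family. KAT2, PCK1 and SDP1 lie more than 10-fold above their paralogues, ICL lies above MLS, and the plotted GGT1, GOX1, HPR1 and CAT2 lie above all of the 9 genes.

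The spread between libraries of 1 genotype was wide for 2 of the 9 genes. The within-genotype SD of ICL, 0.34 on the log2 scale, was larger than that of 97.0% of the 861 tested genes within 2-fold of its level. ACX2, with 0.22, exceeded 88.3% of 1423 such genes. WT replicate 1 was the highest library for 4 of the 9 genes and WT replicate 3 the lowest for 5. athb1-1 replicate 2 lay below the gene mean for 8 of the 9.

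The ICL order of libraries was set beside the seed transcripts. The 3 libraries highest in ICL (WT replicates 2 and 1 and athb1-1 replicate 1) were also the 3 highest in the summed seed list, at 54.8, 8.83 and 6.68 CPM against at most 2.70 CPM elsewhere. CRA1, a cruciferin storage protein gene that is part of this sum, had 43, 95 and 12 counts in WT and 47, 6 and 7 in athb1-1. The whole list had 95, 602 and 33 counts in WT and 92, 20 and 29 in athb1-1. The order of CRA1 is therefore not separate from that of the sum. Outside WT replicate 2 most of the seed genes were close to 0: SESA3 had 130 counts there and at most 1 elsewhere, and HSD1 had 0 in all. Only CRA1 and OLEO2 of the 14 were abundant enough to test, and neither passed (OLEO2 log2 fold change −1.75, SE 0.73, unadjusted p = 0.0426, adjusted p = 0.939 by edgeR with Benjamini-Hochberg). The part of seed transcripts in the ICL spread was not tested.

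Over all genes the libraries differed along with transcript length. In WT replicate 2, the shortest 10% of genes had a median deviation from the gene mean of 0.11 on the log2 scale and the longest 10% −0.21, and in WT replicate 3 these were −0.08 and 0.14. SDP1, whose transcript of 3300 bases is the longest of the 9, had a within-genotype SD of 0.12 as measured and of 0.07 once each library's length trend had been removed. That of ACX2 (2581 bases) went from 0.22 to 0.17, and its deviation in WT replicate 2 from −0.25 to −0.17. ICL (2213 bases) kept its spread, at 0.34 before and 0.35 after, and the SD of the other 6 genes was larger after the removal. Among them PCK1 (2583 bases), about as long as ACX2, went from 0.08 to 0.12. The part of length in the spread of ACX2 and SDP1 was not tested.

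**Figure D4:**
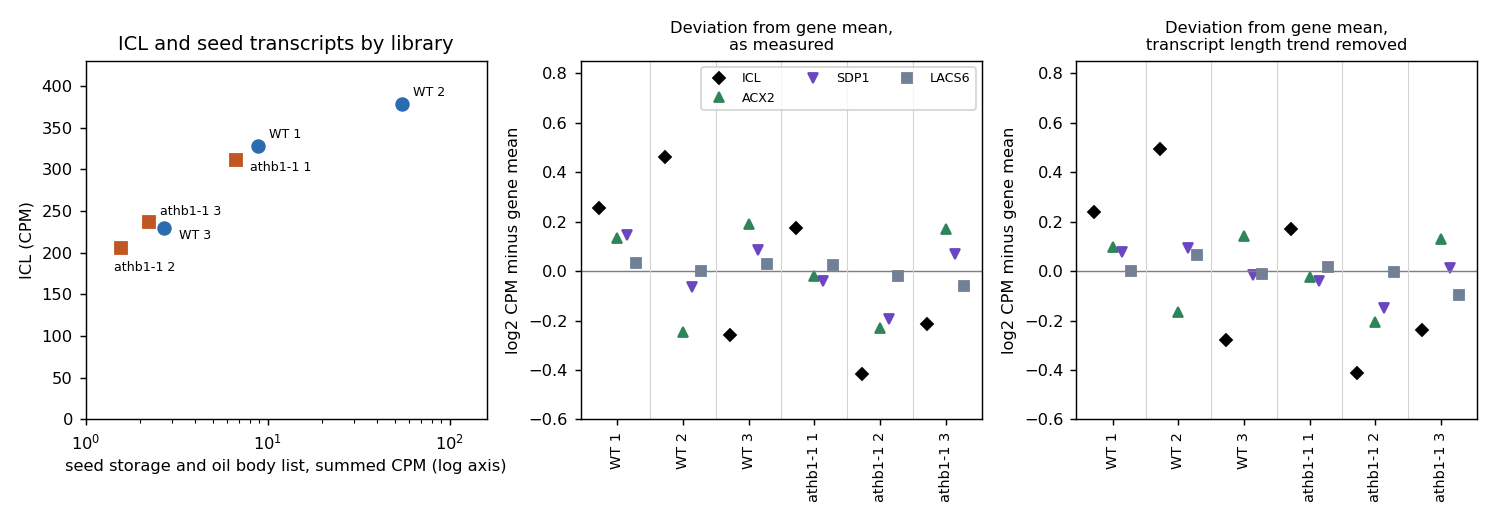
Left, ICL (CPM) against the summed level of 14 seed storage and oil body genes (CPM, log axis) in each library; the 3 libraries highest in one are highest in the other. Middle and right, log2 deviation of 4 genes from their mean in each library, as measured and with the transcript length trend removed; ACX2 in WT replicate 2 moves from −0.25 to −0.17, while ICL keeps its spread.

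The genes whose deviations were most like those of ICL were ranked by the root mean square difference over the 6 libraries, among 18052 genes. The 5 nearest were AT1G22830 (0.08 on the log2 scale), AT2G27800 (0.09), AT3G16565 (0.10), AT5G25580 (0.11) and AT5G14140 (0.11). All 5 were expressed at a low level, between 0.781 and 4.37 CPM in any library, where counting noise is large. Among 18052 genes and only 6 libraries some close matches arise in any case, and the likeness was not tested. Of the other oil mobilisation genes CSY2 ranked 915th, MLS 1324th and ACX2, the least like ICL, 12174th.

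The rest of the pathway was covered by 7 lists of 51 genes, of which 49 were tested. By edgeR 0 of them passed the adjusted threshold and 2 had an unadjusted p under 0.05, against 5.24% of all genes, and by DESeq2 0 passed. The median log2 fold change was −0.04, with 17 values above 0 and 32 below, against 48.3% of values below 0 over all genes. The groups did not overlap for 7 of the 49, against 11.3% of all genes. Other lipase and lipid droplet genes (3) had a median log2 fold change of 0.12, other beta-oxidation genes (14 of 15 tested) −0.04, and other genes of the glyoxylate cycle and gluconeogenesis (10 of 11) −0.01. Peroxisome transporters (4) had a median of 0.03, import factors (9) −0.07, catalases (3) 0.01 and photorespiratory enzymes (6) −0.05.

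PPDK, the pyruvate orthophosphate dikinase that offers a second route into gluconeogenesis, was at 279, 178 and 247 CPM in WT and 165, 169 and 203 CPM in athb1-1. WT replicates 1 and 3 lay above all mutant libraries, while WT replicate 2 lay inside the mutant range. The log2 fold change was −0.39 (SE 0.15, unadjusted p = 0.0263, adjusted p = 0.939 by edgeR with Benjamini-Hochberg). Without WT replicate 2 it was −0.56 and passed the test (adjusted p = 0.00334), the 1 gene of the 49 to do so, in a fit that called 0.873% of all genes.

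PNC2, a peroxisomal adenine nucleotide carrier that supplies ATP for fatty acid activation, was at 13.7, 15.4 and 17.0 CPM in WT and 22.4, 18.8 and 19.3 CPM in athb1-1. All mutant values lay above all WT values. The log2 fold change of 0.39 (SE 0.12) had an unadjusted p of 0.0069 and did not pass (adjusted p = 0.768 by edgeR with Benjamini-Hochberg; 0.136 without WT replicate 2).

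In the other lists the genes with the smallest p were weaker still. IBR10, a peroxisomal enoyl-CoA enzyme of indole-3-butyric acid conversion, had a log2 fold change of −0.24 (adjusted p = 0.939 by edgeR with Benjamini-Hochberg). PEX13, a docking factor of the peroxisome import machinery, had −0.19 and CAT2 had −0.18, each with an adjusted p of 0.947 by the same test. AGT1, the serine-glyoxylate aminotransferase, had −0.13 (adjusted p = 0.961, edgeR), and CGI58, a lipid droplet regulator, had 0.12 (adjusted p = 0.971, edgeR). The most abundant gene per kb was ACX4 in beta-oxidation (236 CPM per kb) and PMDH2, a peroxisomal malate dehydrogenase, in the glyoxylate list (429 CPM per kb). It was BOU among transporters (33.9 CPM per kb), PEX13 among import factors (231 CPM per kb), CAT2 among catalases (1097 CPM per kb) and GGT1 among photorespiratory enzymes (1543 CPM per kb).

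The exon bin counts gave another view of the same libraries. Exon usage differed between genotypes in 0 of the 9 genes by edgeR's exon usage test (Simes p per gene, Benjamini-Hochberg adjusted), against 0.00781% of 12808 genes, and the lowest unadjusted Simes p was 0.665, for MLS. ICL has 5 exons in TAIR10.1. Its first exon (chromosome 3, 7655844 to 7656053) held 4.40 ± 0.211% of the gene's bin counts in WT and 3.88 ± 0.582% in athb1-1 (SD, n = 3 each). Exon 4 (7653226 to 7653818) held the largest share, 33.2 ± 1.26% in WT and 32.1 ± 0.580% in athb1-1. The shares of the other 3 exons differed between genotype means by less than 1 percentage point.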

How the data were processed

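The gene files hold raw counts per gene and the exon files raw counts per exon bin, as deposited by the authors. The submitters' processing notes name TAIR10, Bowtie2 2.1.0 and TopHat2 2.0.8. The sources used here do not name the counter or its strand setting. Entries of the exon files that name no bin made up 9.85 to 12.1% of their totals and were left out; the gene files have none. The authors' deposited comparison table gives log2 fold changes, log2 CPM, p-values and adjusted p-values; its sign was turned to athb1-1 over WT. Its 6 columns of per-library signal, scaled by the authors, were not used. Names, lengths and positions came from TAIR10.1 (RefSeq), which held the loci reported.

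Gene counts of the 6 libraries were tested in R 4.3.3 with edgeR 4.0.16, using TMM, filterByExpr, robust quasi-likelihood and genotype as the only term. P-values were adjusted by Benjamini-Hochberg over all 18626 genes tested, with a threshold of 0.05. Each SE was derived from the fold change and its F statistic. Quasi-likelihood dispersions are moderated across genes, so SE, intervals and p-values do not rest on a gene's own spread alone. Exon usage was tested with edgeR's diffSpliceDGE. CPM were scaled by TMM factors, and deviations used log2 CPM with a prior count of 2. DESeq2 1.42.0, other scaling and filters, exon bin sums, a replicate block, removal of each library's transcript length trend and leaving out each library were alternatives. The scripts were tested on simulated data. The 10 genes and the lists were chosen with earlier results of these data known, and 1 of the 10 is not reported here. In each list the text names the genes with the smallest p and the highest CPM per kb and any that passed, besides the 5 genes most like ICL; ACX1, SDP1L, KAT1, KAT5, PCK2, CSY1, CSY3, GOX1, HPR1, CRA1 and HSD1 were added for comparison of levels.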

Additional observations from a re-analysis of the deposited data

How the results depend on the processing

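Across 13 alternatives 0 of the 9 oil mobilisation genes passed the threshold, with a lowest adjusted p of 0.363 (edgeR or DESeq2, Benjamini-Hochberg), and 0 changed in exon usage under the 2 alternatives run for it. Their median log2 fold change ran from −0.06 to −0.0086, and that of ICL from −0.50 to −0.15. Of 117 gene values 12 changed sign, all close to 0. CSY2 became 0.0016 with no filter on low counts, 0.0018 with the replicate block, 0.066 without WT replicate 2, 0.093 when the length trend was removed as well, 0.025 without athb1-1 replicate 2 and 0.012 without athb1-1 replicate 3. LACS7 became 0.020 without WT replicate 2 with the length trend removed, and MLS 0.018 without WT replicate 1. PCK1 became −0.015 without WT replicate 3 and −0.0065 without athb1-1 replicate 1. ACX2 became 0.027 and 0.036 without WT replicate 3 and athb1-1 replicate 2 respectively. Leaving out 1 library at a time, log2 fold changes ran from −0.058 to 0.066 for CSY2, −0.18 to 0.018 for MLS, −0.015 to 0.069 for PCK1, −0.19 to 0.036 for ACX2 and −0.17 to −0.045 for SDP1.

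Over all genes, 4 were higher and 6 lower in athb1-1. DESeq2 called 12 and 11, and the fit with no filter 10 higher. Leaving out 1 library gave 3 to 71 higher and 4 to 94 lower, the upper ends without WT replicate 2, or 46 and 60 with the length trend removed too. Of the related lists 1 gene, PPDK, was then called lower in both fits, and leaving out other libraries called 0. The cause was not tested. No source says whether the replicate numbers pair the samples. Over genes, the deviations of same-numbered libraries from their genotype means correlated at −0.05, 0.21 and 0.11. In these deviations 2 WT libraries and 1 athb1-1 library correlated best with their own number. With 3 libraries a genotype these values cannot settle the pairing. With the replicate block 12 genes were called in all, none of them among the 9. With 3 libraries a genotype, changes within a gene's own interval were not excluded, and changes beyond it could also fail the adjusted test.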
